A study of Mus musculus with 44 samples.

Results

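Fgd2, Fyb and Sema4d are 3 of the 21883 protein-coding genes in the annotation used. The peaks assigned to them are those whose position fell within 100 kb of the annotated gene span in mm10, in each of 8 deposited ChIP-seq peak lists. The genes were picked because NF-kB peaks near them led earlier comparisons of these same lists. The values below are therefore a description, and no test was made on them.

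The study grew macrophages from the bone marrow of C57BL/6 mice in 30 ng/ml M-CSF with 10% serum and collected them between day 8 and day 10. Cells either lacked the DNA methyltransferase Dnmt3a (KO) or were wild type (WT). They received 10 ng/ml lipopolysaccharide (LPS, a bacterial cell wall component) for 6 hours or were left untreated. ChIP-seq, which recovers the DNA bound by a protein, was done with antibodies to NF-kB (subunit not stated) and to IRF3, both transcription factors activated downstream of LPS receptors. The 4 groups per factor are KO with LPS, WT with LPS, untreated KO and untreated WT. The labels do not say how the Dnmt3a deletion was made, in which cells it was driven or whether replicates came from separate animals. Each list merges 2 or 3 replicates, 3 in all but the IRF3 lists of WT with LPS and of untreated KO, so no value has a replicate spread. Read depth per sample is unknown here, since the lists hold peaks only.

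NF-kB is held in the cytoplasm by inhibitor proteins and enters the nucleus after LPS, where it binds short sites near inflammatory genes, often far from their starts. Fgd2 encodes a guanine nucleotide exchange factor that loads the small GTPase CDC42, a switch for actin assembly, and is found in antigen-presenting cells. Fyb encodes ADAP, an adaptor of blood cells that joins kinase signalling below surface receptors to integrins and actin. Sema4d encodes CD100, a semaphorin on the surface of immune cells that binds plexin receptors and CD72. It is a ligand and receptor, and neither an adaptor nor a cytoskeletal protein.

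NF-kB peaks lay near all 3 genes after LPS, and near none of them without it. The KO list with LPS held 4 peaks near Fgd2, Fyb and Sema4d, and the WT list with LPS held 3, near Fgd2 and Fyb. Untreated KO and untreated WT cells had no NF-kB peak there. None of the 4 IRF3 lists had one either. In all there were 7 peaks at 4 positions. Fgd2 carried a pair of positions in both genotypes, Fyb carried 1 position in both, and Sema4d carried 1 in KO alone. Across all protein-coding genes, 15.2% had a peak within 100 kb in the NF-kB list of KO with LPS and 15.5% in that of WT with LPS. Without LPS the shares were 18.4% for KO cells and 9.62% for WT cells. The IRF3 lists gave 11.0% for KO and 8.51% for WT with LPS, and 10.5% for KO and 6.47% for WT without it. The genes were chosen with these lists known, so nothing is read from the members' count against these shares.

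**Figure D1:**
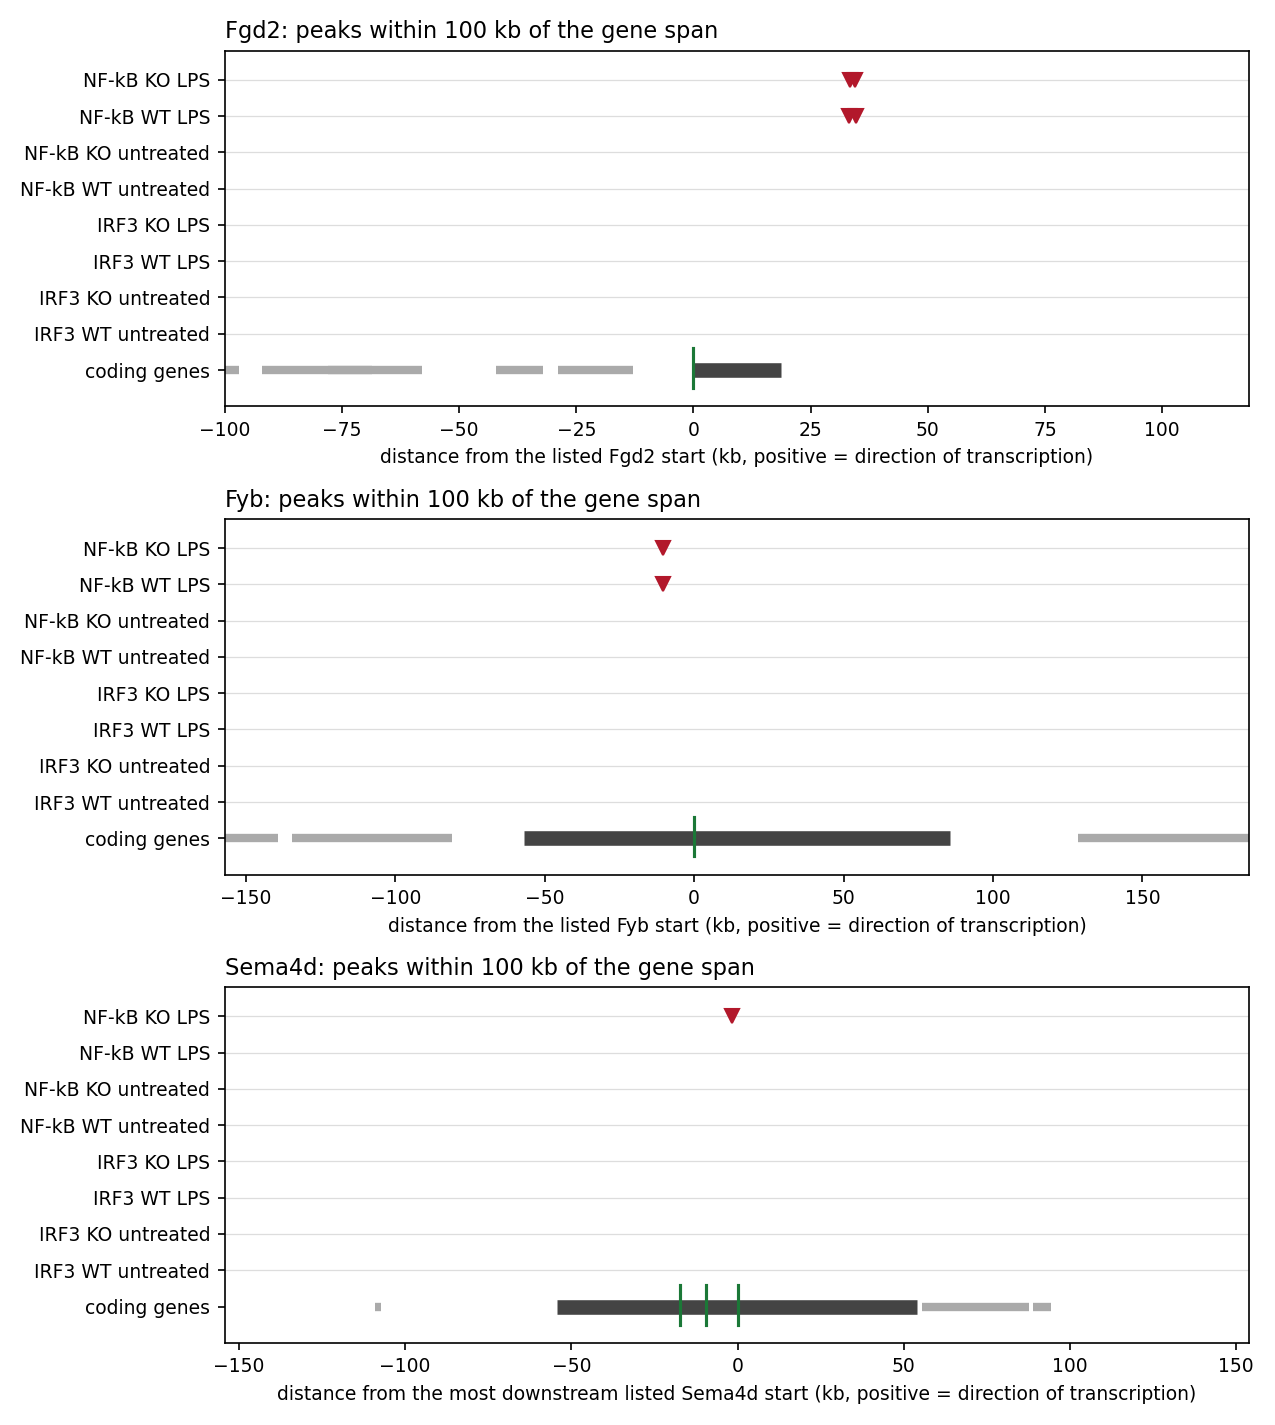
Peaks within 100 kb of each gene, by list (rows), against distance in kb from a listed start, positive in the direction of transcription. Triangles mark peak midpoints, dark bars the gene span, green ticks listed starts and grey bars other protein-coding genes; only the 2 NF-kB lists with LPS hold triangles.

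Fgd2 lies on chr17:29360904-29379535, on the plus strand, and spans 18.6 kb. Its peaks all fell in the stretch beyond the 3′ end of the gene, outside every annotated gene. In KO with LPS the position nearer the gene was chr17:29394180-29394490, which is 311 bp wide and 14645 bp past the gene end. In WT with LPS it was chr17:29393955-29394342, which is 388 bp wide and 14420 bp past the end. Both genotypes thus had a narrow peak here, about 33 kb downstream of the listed Fgd2 start, and these peaks overlapped in part, by 163 bp. The position farther from the gene was chr17:29395131-29395710 in KO with LPS, 580 bp wide and 15596 bp from the gene end. In WT with LPS it was chr17:29395402-29395716, 315 bp wide and 15867 bp from it. The pair was separated by 641 bp in KO and by 1060 bp in WT, so that both peaks sat within 1531 bp of sequence in KO and 1762 bp in WT.

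The farther Fgd2 position was among the best-ranked peaks of both lists, and the nearer one was not. Peaks carry a score, a signal value, a p-value and a q-value that are the authors' own, and ranks here follow the p-value within a list. In KO with LPS the farther peak ranked 99 of 2376, with a signal value of 22.6 and a q-value of 0.00901. In WT with LPS it ranked 65 of 2494, with a signal value of 25.7 and a q-value of 0.00185. The nearer peak ranked 823 in KO with a q-value of 0.342. In WT it ranked 2107 with a q-value of 0.904, far down its list. Of all genes, 3.63% had 2 or more peaks within 100 kb in the KO list and 3.19% in the WT list. These were 794 of the 3331 genes with any such peak in KO, and 698 of the 3388 in WT. Fgd2 was chosen for its NF-kB peaks, so nothing is read from its pair against these shares.

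Fyb lies on chr15:6522796-6665608, on the plus strand, and spans 142.8 kb. Its peak fell inside the annotated span but upstream of the 1 Fyb start in the promoter table, at chromosome 15 position 6579847. In KO with LPS it was chr15:6569170-6569508, 339 bp wide and 10339 bp before that start. In WT with LPS it was chr15:6569320-6569458, 139 bp wide and 10389 bp before it. The span begins farther upstream than this start, so whether the peak is intronic or lies before a transcript depends on the Fyb transcript taken. The KO peak ranked 48 of 2376 with a signal value of 21.9 and a q-value of 0.00218. The WT peak ranked 642 of 2494 with a signal value of 13.7 and a q-value of 0.155. The site was thus within the first 2.02% of the KO list and 25.7% of the way down the WT list. A better rank in KO was common. Of 101 regions listed in both NF-kB lists with LPS and in no other, 73 had it, by share of list length. Ranks and q-values of separate lists depend on each list's own candidates, and they do not measure a difference in binding between genotypes.

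Sema4d lies on chr13:51685529-51793678, on the minus strand, and spans 108.2 kb. Its peak, at chr13:51740932-51741081 in KO with LPS, was 150 bp wide and lay inside the gene. It stood 1486 bp upstream of the most downstream of the 3 listed Sema4d starts, at position 51739446. The other listed starts are at positions 51748810 and 51756683. This peak ranked 124 of 2376, with a signal value of 21.8 and a q-value of 0.0180. WT with LPS had no NF-kB peak within 100 kb of the gene, and its nearest lay 1710 kb away. A peak missing from a list may have failed that list's threshold, and the reads behind it were not analysed here.

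Promoter sequences show which letters precede the starts nearest to these peaks. The 250 bases before each start follow, 5′ to 3′ on the strand of the gene, from RefSeq (GRCm38.p6), with GGAA on either strand (TTCC on the printed strand) in capitals. GGAA is the core bound by ETS factors, the family of the myeloid factor PU.1.
Fgd2, chr17:29360664-29360913, plus strand: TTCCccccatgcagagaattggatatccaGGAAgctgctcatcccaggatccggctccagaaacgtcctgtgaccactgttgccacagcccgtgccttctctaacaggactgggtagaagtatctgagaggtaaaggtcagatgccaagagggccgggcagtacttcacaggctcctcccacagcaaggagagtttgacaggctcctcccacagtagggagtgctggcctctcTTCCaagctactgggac
Fyb, chr15:6579597-6579846, plus strand: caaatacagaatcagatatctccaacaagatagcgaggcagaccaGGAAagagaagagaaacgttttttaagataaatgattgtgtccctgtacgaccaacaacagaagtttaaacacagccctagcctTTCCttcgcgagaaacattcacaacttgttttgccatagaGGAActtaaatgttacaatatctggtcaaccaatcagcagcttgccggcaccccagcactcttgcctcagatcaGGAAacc
Sema4d, chr13:51739447-51739696, minus strand: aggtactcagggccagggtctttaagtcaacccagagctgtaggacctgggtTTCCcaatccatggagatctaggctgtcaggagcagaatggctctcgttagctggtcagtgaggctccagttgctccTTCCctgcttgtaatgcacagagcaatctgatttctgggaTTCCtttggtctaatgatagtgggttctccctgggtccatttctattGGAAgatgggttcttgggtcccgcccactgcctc
No peak overlapped these windows or any other promoter window in the table. Over the full windows, 250 bases before to 50 after a start, none of the 5 listed starts of the 3 genes held the NF-kB consensus on either strand (GGG, a purine, any 2 bases, 2 pyrimidines, CC). It occurs in 8.46% of the 32851 promoters. The paired interferon response motif (GAAA, any 2 bases, GAAA) was absent from all 5 as well and occurs in 3.44% of promoters. GGAA occurred between 1 and 5 times in each of them and is in 96.0% of promoters. A looser NF-kB form (GG, a purine, any 3 bases, 2 pyrimidines, CC) matched once in the Sema4d window shown, as GGGTTCTCCC beginning 60 bases before the start. It matched once for Fgd2, as GGAACTGCCC beginning 28 bases after the start base (the form reads on the opposite strand), and occurs in 26.8% of promoters. These are letters in promoters, and the bases under the peaks were not read.

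**Figure D2:**
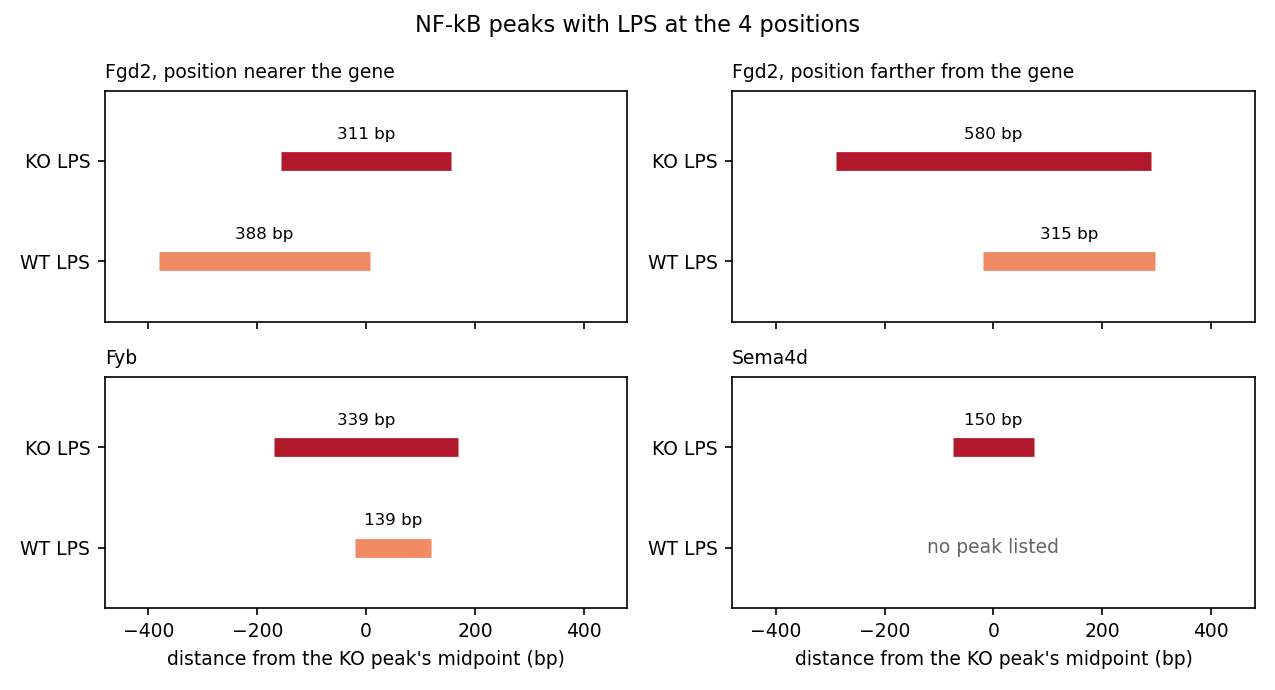
Extent of each NF-kB peak with LPS at the 4 positions, KO above WT, in bp from the midpoint of the KO peak (coordinates increase to the right). At Fyb the WT peak lies wholly within the KO peak, and at Sema4d only KO has a peak.

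LPS against untreated cells was the first contrast. With LPS, KO cells had NF-kB peaks at all 4 positions, against none in untreated KO cells. WT cells with LPS had them at the 3 positions of Fgd2 and Fyb, against none in untreated WT cells. The absence without LPS extended well past the 100 kb limit. The NF-kB peak nearest to Fgd2 in untreated cells lay 252 kb away in both genotypes. For Fyb it lay 436 kb away in KO and 727 kb in WT, and for Sema4d 1385 kb and 1342 kb. Among all genes, 5.11% had a peak within 100 kb with LPS and none without in KO, and 8.36% in WT. By peak, 70.2% of the 698 KO peaks under 500 bp with LPS overlapped none in untreated KO, against 24.4% of wider ones. In WT the shares were 90.4% of 615 and 52.7% of wider ones. The members were chosen on these contrasts. IRF3 gained no peak near any of them, where 4.04% of all genes met the same condition in KO and 3.94% in WT.

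KO against WT after LPS was the second contrast. NF-kB peaks were listed at 3 of the 4 positions in both genotypes, and the peak inside Sema4d for KO alone. Of these, the nearer Fgd2 peak of WT had a q-value of 0.904. Over all genes after LPS, 5.06% had a peak within 100 kb in the KO list alone and 5.32% in the WT list alone. By peak, 31.2% of the 698 KO peaks under 500 bp overlapped a WT peak, against 72.1% of the 1678 wider ones. Of the 615 WT peaks under 500 bp, 26.2% overlapped a KO peak, against 64.0% of the 1879 wider ones. At Fyb the 139 bases of the WT peak all lay within the KO peak, with midpoints 50 bp apart. At the farther Fgd2 position the peaks shared 309 bp, which is 53.3% of the KO peak and 98.1% of the WT peak, with midpoints 138.5 bp apart. The nearer Fgd2 position was less well matched, with 163 bp shared (52.4% of the KO peak and 42.0% of the WT peak) and midpoints 186.5 bp apart. For scale, the median distance between midpoints was 54.5 bp over the 101 regions listed in both NF-kB lists with LPS and in no other list. The KO peak was the wider at Fyb and at the farther Fgd2 position, and the WT peak at the nearer one. Without LPS neither genotype had a peak near the genes, where 10.8% of all genes had one in untreated KO alone and 2.03% in untreated WT alone. IRF3 likewise had none in KO or WT, where 5.32% of all genes had one in KO alone with LPS and 5.77% in KO alone without it.

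NF-kB against IRF3 was the third contrast, and the genes were chosen with the lists of both factors known. IRF3 had no peak within 100 kb of Fgd2, Fyb or Sema4d in any of the 4 conditions. Its nearest peaks lay 252 kb from Fgd2 in every condition. From Fyb they lay between 436 and 727 kb away, and from Sema4d between 1155 and 1386 kb. NF-kB without IRF3 in the same condition was found at 7.63% of all genes in KO with LPS and 8.85% in WT with LPS. Most genes lacked IRF3 peaks, since 83.0% of all protein-coding genes had no IRF3 peak within 100 kb in any of the 4 lists. Of the 3331 genes with an NF-kB peak within 100 kb in KO with LPS, 34.7% had none. By width, of 698 NF-kB peaks under 500 bp in KO with LPS, 70.9% overlapped no IRF3 peak in any list (exact 95% interval 67.4 to 74.3%, counting error only), against 20.6% of the 1678 wider ones (18.6 to 22.6%). In WT with LPS the shares were 75.9% of 615 (72.4 to 79.3%) and 22.9% of 1879 (21.05 to 24.9%). The peaks of a merged list are not replicates. How far an overlap of 1 bp or more depends on peak width was not tested.

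Most of the peaks were narrow. Widths ran between 139 and 580 bp, and 6 of the 7 peaks were under 500 bp, the exception being the farther Fgd2 peak of KO with LPS. The list medians were 943.5 bp in KO with LPS and 1035 bp in WT with LPS, and peaks under 500 bp made up 29.4% and 24.7% of those lists. The Fyb peak of WT was wider than 3.17% of its list, and the Sema4d peak of KO was wider than 7.79%. Few narrow peaks ranked above Sema4d, Fyb or the farther Fgd2 position, and more above the nearer one (96 in KO and 408 in WT). Of the 698 narrow KO peaks, 11 ranked above Sema4d and 3 above Fyb. In WT with LPS, 3 of 615 narrow peaks ranked above the farther Fgd2 peak and 33 above Fyb. By signal value, the Fyb and Sema4d peaks exceeded 97.9% and 97.7% of the narrow peaks of KO with LPS. In WT with LPS the Fyb peak exceeded 92.2% of the narrow peaks, and the nearer Fgd2 peak 30.2%. The genes were picked because NF-kB peaks near them led comparisons of these lists, so these places are not read as a result.

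**Figure D3:**
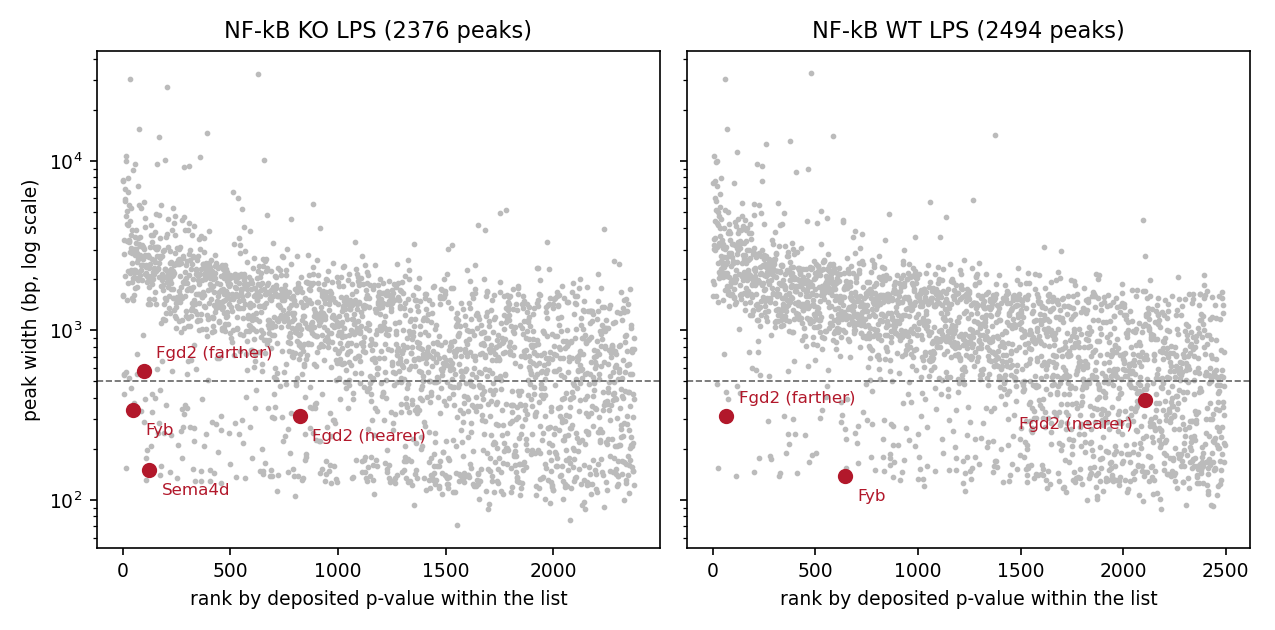
Peak width in bp (log axis) against rank by deposited p-value, for NF-kB in KO with LPS (left) and WT with LPS (right); grey points are the other peaks, red points those near the 3 genes, and the dashed line is 500 bp. The farther Fgd2 peak is near the left edge in both lists, while the Fyb peak stands at rank 48 in KO and rank 642 in WT.

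The outermost Fgd2 peak lay 15.9 kb from the gene and the next peak of any list 252 kb from it, so no peak was close to the 100 kb limit on either side. In KO with LPS the next NF-kB peak was 285456 bp from the Fgd2 pair, 482271 bp from the Fyb peak and 1277128 bp from the Sema4d peak, where the median distance to the next peak in that list was 206182 bp. The WT list with LPS had its next peak 285089 bp from the Fgd2 pair and 482492 bp from the Fyb peak, with a median of 230924 bp. The Fgd2 pair was thus not far from the usual spacing, and the Fyb and Sema4d peaks were farther from other peaks than the median. Fgd2, Fyb and Sema4d were the nearest protein-coding genes to all 7 peaks. The next nearest were Mtch1, 46008 bp from the closest Fgd2 peak, C9, 70.3 kb from the Fyb peak, and Secisbp2, 56.9 kb from the Sema4d peak. Mtch1 encodes a mitochondrial carrier protein, C9 a component of complement, and Secisbp2 a protein needed to insert selenocysteine. No expression was measured here, so no effect of a peak on any of these genes is known.

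The same pattern across the 8 lists was found at a small set of other regions. Of 5605 regions formed by joining overlapping peaks of all lists, 101 were listed in both NF-kB lists with LPS and in no other, and 56 of these had peaks under 500 bp only. Ordered by their mean rank as a share of list length, the farther Fgd2 region stood at place 2 of 101, Fyb at place 12 and the nearer Fgd2 region at place 69. The 5 best-ranked narrow regions of this pattern, other than these, lay near Cebpb, Fam107a, Tnfaip3, Socs3 and Sod2. Tnfaip3 encodes the NF-kB inhibitor A20 and Socs3 a suppressor of cytokine signalling, and Sod2 is the mitochondrial superoxide dismutase gene. The Tnfaip3 and Sod2 regions overlapped their genes, whereas the Cebpb region lay 87.0 kb from its gene and the Socs3 region 19.3 kb. Regions listed for NF-kB in KO with LPS alone numbered 444, of which 327 were narrow, and Sema4d ranked first among both. The next narrow ones lay near Saa1, an acute-phase gene, then overlapping Vmp1, Adgre1 and Aopep and near Socs3. The regions named as alike match in all 8 lists by the rule that chose them. The members were picked because NF-kB peaks near them led comparisons of these lists, so their places are not read as a result. Among all genes, 1.12% had peaks within 100 kb in both NF-kB lists with LPS and in no other list, and 2.42% in that of KO with LPS alone.

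Other genes of the same pathways with peaks within 10 kb had peaks of 500 bp or more, each with at least 1 listed without LPS or for IRF3. At the 100 kb used for the members, 3 pathway genes had peaks in the NF-kB lists with LPS only. Further pathway genes had single positions listed only there. Lists of 24 genes of FGD and CDC42 actin signalling, 23 ADAP partners and integrin adaptors, and 26 semaphorins and their receptors were examined first at 10 kb from the gene span. In KO with LPS, NF-kB had a peak near 4, 0 and 0 of them, and in WT with LPS near 4, 0 and 2. Untreated KO cells had 4, 1 and 2, and untreated WT cells 4, 0 and 0. The background over all genes was 3.97% for KO and 4.10% for WT with LPS, and 4.95% for KO and 2.45% for WT without it. Differences in gene length between the lists and all genes were not tested. IRF3 peaks after LPS lay near 4, 0 and 2 genes in KO and 2, 0 and 0 in WT, where the background was 2.87% and 2.20%. Without LPS they lay near 4, 0 and 2 genes in KO and 1, 0 and 2 in WT, against backgrounds of 2.65% and 1.67%.

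In total 7 genes of these lists had a peak within 10 kb, and none of them had peaks confined to the NF-kB lists with LPS. Their 48 peaks were all 500 bp or wider. Dock2, a Rac exchange factor of leukocytes, had 1 or 2 wide peaks overlapping the gene in each of the 8 lists, of 1507 to 2111 bp. Fgd4, a CDC42 exchange factor of the same family as Fgd2, had a peak overlapping the gene, of 916 to 1323 bp, in all 4 NF-kB lists and both KO IRF3 lists. Pak1, a kinase driven by CDC42 and Rac, was marked in the same 6 lists, and Iqgap1, a CDC42-binding scaffold, in 7. Sema3a and Sema3c, which encode secreted semaphorins, had peaks in 5 lists each, all overlapping the gene spans. Rassf5, which encodes an effector of the GTPase RAP1, had 1 peak of 846 bp, for NF-kB in untreated KO cells.

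A distance of 10 kb would have left Fgd2 out, so the same lists were also counted at 100 kb. There, 24 of their genes had 101 peaks over all 8 lists, 10 of them under 500 bp, and the share of all genes for any list was not computed. NF-kB in KO with LPS then had a peak near 6, 2 and 4 genes of the 3 lists, and in WT with LPS near 5, 3 and 4. Untreated KO cells had 7, 3 and 8, and untreated WT cells 4, 0 and 3. IRF3 had 7, 1 and 5 in KO with LPS and 3, 0 and 1 in WT with LPS, and 6, 1 and 5 in untreated KO and 1, 0 and 4 in untreated WT. Over all genes, the NF-kB shares at 100 kb were 15.2% for KO and 15.5% for WT with LPS. Without LPS they were 18.4% and 9.62%. For IRF3 they were 11.0% and 8.51% with LPS, and 10.5% and 6.47% without it. Lyn, Was and Apbb1ip had peaks in the NF-kB lists with LPS and in no other list. Lyn, a Src-family kinase, had the presence of Fgd2 and Fyb, with a peak of 560 bp in KO with LPS (63.8 kb away, rank 1713) and of 698 bp in WT with LPS (63.5 kb away, rank 670). Was, which encodes the CDC42 effector WASP of blood cells, had that of Sema4d, with a peak of 454 bp in KO with LPS alone, 81.8 kb away and at rank 1384. Apbb1ip, which encodes the RAP1 effector RIAM, had a peak of 180 bp in WT with LPS alone, 15.2 kb away and at rank 1241. Over all genes, 1.12% had the presence of Lyn and 2.42% that of Was. The share with the presence of Apbb1ip was not computed. These 3 genes are therefore not read as a feature of the pathways. By position, more peaks were listed with LPS for NF-kB only. Fgd4 had overlapping peaks in KO (944 bp, 22.6 kb away, rank 2339) and WT (1170 bp, 22.0 kb, rank 2012). In KO alone were peaks of Vav1 (146 bp, 29.3 kb, rank 222, also overlapping Adgre1), Iqgap1 (581 bp, overlapping the gene, rank 2128) and Sema6a (209 bp, 23.4 kb, rank 1310). Of the 5605 joined regions, 101 had the pattern of Fgd4 and 444 that of KO alone.

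**Figure D4:**
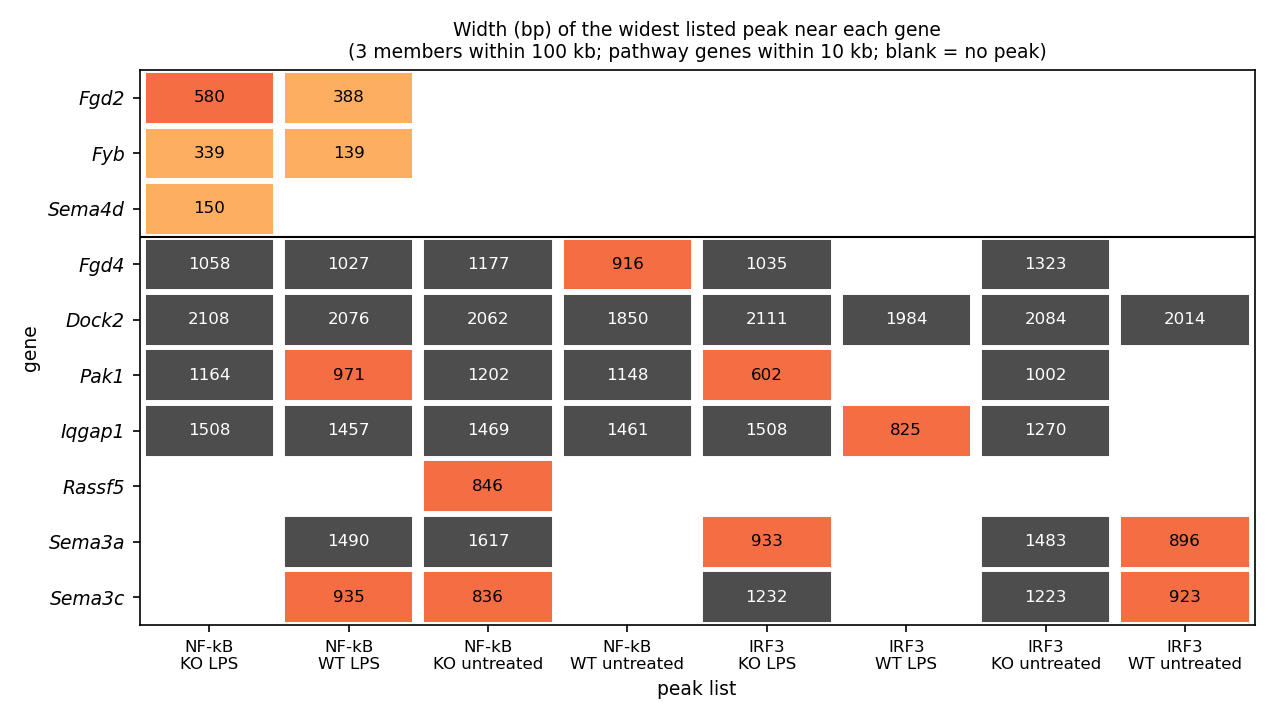
Width in bp of the widest peak near each gene (rows) in each list (columns), within 100 kb for Fgd2, Fyb and Sema4d and within 10 kb for the pathway genes. Light orange is under 500 bp, dark orange from 500 bp to under 1000 bp, grey 1000 bp or more and blank no peak; the 3 genes at the top are filled in the NF-kB lists with LPS only.

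Peak lists cannot check the identity of the cells. Of 8 macrophage markers, between 0 and 2 had a peak within 10 kb in each list (Fcgr1, Adgre1 and Mertk in at least 1). None of the 4 matched T cell, 4 B cell, 4 neutrophil and 4 dendritic cell markers had one in any list. At 100 kb, in any list, 6 macrophage, 1 T cell, 1 B cell, 3 neutrophil and 2 dendritic cell markers had one. The share of all genes with a peak in any list was not computed. By single list the counts at 100 kb were 1 to 3 macrophage, 0 to 1 T cell, 0 to 1 B cell, 0 to 3 neutrophil and 0 to 2 dendritic cell markers. Over all genes the share by list was 1.67% to 4.95% at 10 kb and 6.47% to 18.4% at 100 kb. Fyb and Sema4d are also used by lymphocytes, and a part of other cells in these peaks was not tested.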

How the data were processed

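The analysis used 8 deposited peak lists in mm10, 1 per factor, genotype and treatment, from 12 NF-kB and 10 IRF3 samples of a series of 44; the bisulfite, ATAC-seq and input samples were not used. Per the labels, all replicates of a group point to 1 list. Per the submitters' processing notes, the tools include MACS2 2.1.1, Picard 2.8.0, deepTools 3.5.0 and HOMER 4.9, with no role stated. The aligner, peak threshold and merging step were not given in the sources used here. Each deposited peak has a score, a signal value treated as a score without stated normalization, and a deposited p-value and q-value. These may describe agreement between replicates and not enrichment over input, and were used for ordering and thresholds inside 1 list only.

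Gene spans came from a RefSeq table of GRCm38.p6, the assembly named mm10, and starts and promoters from a RefSeq promoter table. The 3 genes and all genes of the pathway lists matched by symbol; of the markers, 1 T cell symbol did not. Distance is the coordinate difference between facing ends, and a peak inside a span has distance 0. An overlap of 1 bp or more made peaks shared. Ties in p-value were broken by signal value, width and position. With 1 list per group there was no test. Shares of all genes stand beside the main counts by list, and were not computed for counts over any list. The members and gene lists were chosen with earlier results of these data known. The result for 1 gene of these lists is not reported here, and the counts leave it out. Named pathway genes are those with a peak within 10 kb in any list. Lyn, Was, Apbb1ip, Vav1 and Sema6a, with peaks within 100 kb, were named after their values were seen. Regions named as alike had the same presence in all 8 lists, peaks under 500 bp and a gene within 100 kb, and were the 5 with the lowest mean rank share. Counting steps were tested on simulated data. Python 3.11.15, pandas 2.3.3, NumPy 2.4.6 and SciPy 1.17.1 were used.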

Additional observations from a re-analysis of the deposited data

How the results depend on the processing

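The counts of 0 near Fgd2, Fyb and Sema4d in the untreated and IRF3 lists could not change under the settings tried. Shorter distances and stricter thresholds or widths only remove peaks. The settings of 200 kb and of 100 kb from a listed start were chosen after seeing the data. They could add none either, since the nearest such peaks lay at least 252 kb from Fgd2, 436 kb from Fyb and 1155 kb from Sema4d. Of 205 alternative values over 25 results, 174 lay within 1.5 times the value reported. Most of these are such counts of 0, fixed in advance, so the total is not read as a measure of stability. Within 10 kb, or inside the gene span only, both Fgd2 positions drop out by construction, leaving 2 peaks in KO with LPS and 1 in WT with LPS, all absent from the untreated and IRF3 lists. With a q-value under 0.05 the WT list kept 1 peak (the farther Fgd2 one), so that 2 KO peaks, at Fyb and Sema4d, had no WT partner. At equal list length (1169 peaks) the nearer Fgd2 peak of WT was lost, and again 2 KO peaks had none. All 3 shared positions remained shared when 50% of the shorter peak had to overlap. The looser NF-kB form gave 2 promoter matches and the stricter one 0.

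Counts of pathway genes near a peak in any list depended on distance, and the matching shares of all genes were not computed. For FGD and CDC42 signalling (4 at 10 kb) they were 7 at 50 kb and 11 at 100 kb, for ADAP and integrin adaptors (1) 4 and 5, and for semaphorins (2) 7 and 8. With a q-value under 0.05 they were 2, 0 and 0, and with peaks under 500 bp 0, 0 and 0. The adaptor count was 0 at equal list length. No paired analysis was possible because each list merges its replicates, and for the same reason no replicate could be left out. The depth behind the peaks is unknown, so a missing peak cannot be told apart from one below its list's threshold.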
